A study of Mus musculus with 18 samples.

Results

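Heart and tail fibroblasts were compared in how their transcripts changed when the cells were moved from the culture dish to the space under the kidney capsule. The comparison is the heart response (transplanted minus cultured heart fibroblasts) minus the tail response (transplanted minus cultured tail fibroblasts), and it rests on 12 of the 18 libraries of the series, 3 in each of 4 groups. All donor cells were primary adult fibroblasts from male Rosa mT/mG mice on a C57BL/6 background, a line in which every cell carries a fluorescent reporter from the Rosa26 locus. Donors were 10 weeks old, and the cells had grown for 10 days before they were divided. Recipients were syngeneic C57BL/6J mice aged 10 to 11 weeks, which received a share of the cells on gelatin foam beneath the capsule of a kidney. After 3 days CD45-;TdTomato+ cells were sorted from these kidneys, giving transplanted heart (HFs) and tail (TFs) fibroblasts. The remaining cells were replated and gave the cultured heart (HFc) and tail (TFc) controls. The cultured controls differ from the transplanted cells in the surgery, the foam, the kidney site, the dissociation and the sort together, and these cannot be told apart. The 6 libraries of kidney fibroblasts (KFs and KFc) entered no main value.

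Fibroblasts build and remodel the extracellular matrix and keep, in the adult, transcription factors that mark the organ and body position they came from. After injury they can take up a contractile, matrix-secreting state, and they also answer cytokines, interferons and microbial signals by switching on defence genes. Interferon acts through STAT and IRF factors that bind a short promoter element, the interferon-stimulated response element, whereas tumour necrosis factor and interleukin 1 act largely through NF-kB.

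Library totals lay between 17927838 and 32245168 counts, and 3 counts, taken as the floor of detection, corresponded to 0.093 to 0.167 CPM, a count scaled to a common library size after TMM normalization. Each set of 3 values below follows replicates 1, 2 and 3. The summed level of the fibroblast identity markers, which include the collagens Col1a1 and Col3a1, was 99795 to 162720 CPM in HFs, 40959 to 43972 in HFc, 46023 to 50056 in TFs and 35487 to 35989 in TFc. The cardiac fibroblast factor Tcf21 had 66.9, 84.7 and 88.6 CPM in HFs, 126, 131 and 149.6 CPM in HFc and no count in any of the 6 tail libraries. Markers of the host kidney were present in the transplanted cells of both organs. The 20 proximal tubule markers summed to 984, 3038 and 1090 CPM in HFs, to 1037, 639 and 799 CPM in TFs, to 154 to 183 CPM in HFc and to 221 to 238 CPM in TFc, where most of the cultured level was Gpx3. All 20 rose in both organs, beside 33.3% of all genes in heart and 23.3% in tail. Only Gpx3 was called for the difference between the responses. HFs replicate 2 held the highest level, and the list's median difference of 1.48 (log2) was -0.53 without that library. The part of kidney RNA in the results below was not tested directly. In alternatives, given with the limits, the marker level was a covariate or a library was left out. The mean of log2(CPM + 1) over these markers was 0.74 to 0.79 in the cultured and 3.07 to 5.86 in the transplanted libraries. The covariate thus nearly follows transplantation, and calls lost with it cannot be assigned to kidney RNA. In bulk RNA, fewer cells of a type and less RNA per cell cannot be told apart.

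The responses differed for many genes. With edgeR's quasi-likelihood test and Benjamini-Hochberg adjustment over 15904 genes, 5643 genes (35.5% of those tested) had an adjusted p below 0.05 for the difference. The heart response was the higher for 2809 genes (17.7%) and the tail response for 2834 (17.8%), and the median difference over all genes was 0.04 on the log2 scale. Scaling by library totals alone moved that median to -0.07 and the split to 2297 genes with the heart response higher and 3601 with the tail response higher. One fit of all 18 libraries called 1675 and 2101 of 16577 genes in these directions. In the main fit the size of the difference had a median of 0.85 among the called genes. It passed 1 for 1472 genes with the heart response higher and for 905 with the tail response higher. The study describes the libraries of each condition as biological replicates. Neither the labels nor its transplantation methods say that replicates were separate animals. The p-values therefore measure the spread between these libraries, which may be in part technical. Each organ's own response was broader in the heart cells, in which 10362 genes (65.2%) were called against 8065 (50.7%) in tail fibroblasts. In heart 33.3% of all genes rose and 31.9% fell, and in tail 23.3% rose and 27.4% fell. The responses had a standard deviation over genes of 1.75 in heart and 1.47 in tail. Among the genes called for the difference, the heart response was the larger in size for 4135 (73.3%). With the proximal tubule marker level as a covariate, each organ's own response was called for 5935 genes in heart and 4196 in tail fibroblasts. Because that level nearly follows transplantation, these lower counts cannot be assigned to kidney RNA.

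**Figure D1:**
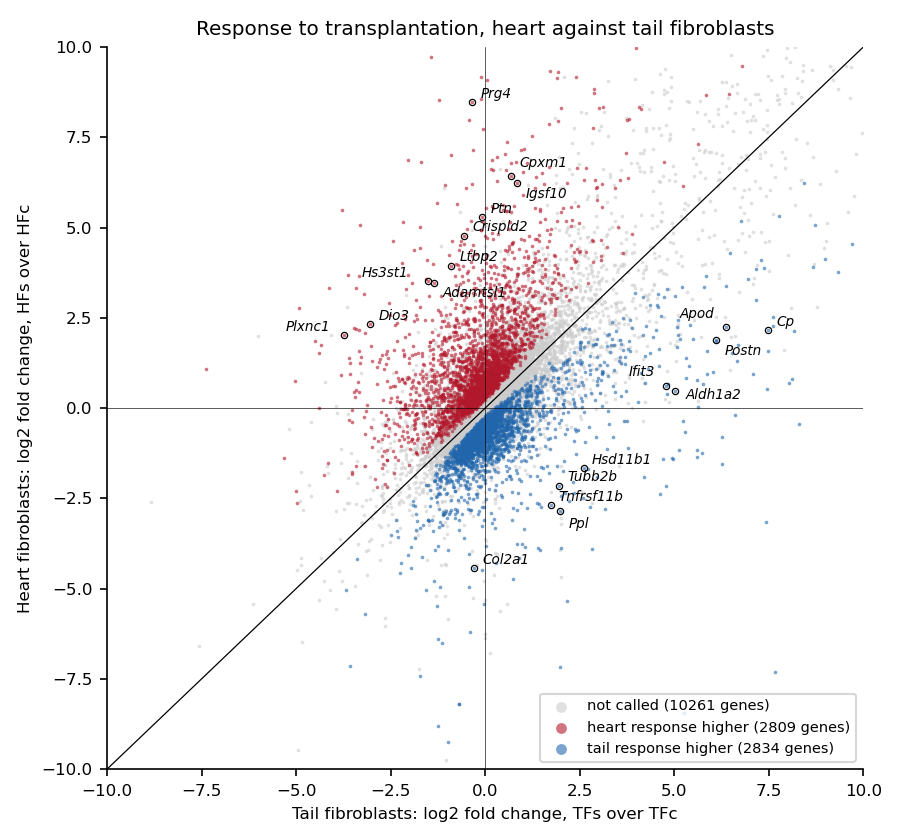
Response of tail fibroblasts (TFs minus TFc, log2, horizontal axis) against that of heart fibroblasts (HFs minus HFc, log2, vertical axis) for the 15904 genes tested, 1 point per gene, coloured by the call for the difference. Genes with a higher heart response (2809) lie above the diagonal and those with a higher tail response (2834) below it, while 52 genes fall outside the axes.

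The differences took several shapes. Of the 2809 genes with a higher heart response, 1143 rose in heart fibroblasts with no call in tail, 601 rose in both, 469 fell in tail with no call in heart, 381 rose in heart and fell in tail, 176 fell in both and 39 were called in neither. Of the 2834 with a higher tail response, 1028 fell in heart with no call in tail, 987 fell in both, 321 rose in tail with no call in heart, 244 fell in heart and rose in tail, 225 rose in both and 29 were called in neither. Genes called in opposite directions thus numbered 625, or 3.93% of the genes tested, but 313 in one fit of all 18 libraries, 284 at an adjusted p of 0.01 and 104 with the proximal tubule marker level as a covariate.

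The same contrast can be read as a change of the gap between the organs. In culture 8276 genes (52%) differed between heart and tail fibroblasts, and after transplantation 5297 (33.3%) did. With scaling by library totals these counts lay closer together, at 8496 and 7586. In the main fit the median size of the gap over all genes was 0.46 in culture and 0.31 after transplantation. A gap beyond 1 was seen for 4166 genes in culture and 2764 after transplantation. Of the 5643 called genes, 2745 (48.6%) differed between the organs in culture only, 897 only after transplantation, 1165 in both with the same organ higher, 647 in both with the other organ higher, and 189 in neither. The gap was the smaller after transplantation for 4150 (73.5%). The cultured libraries varied less (biological coefficient of variation 0.0782) than the transplanted ones (0.206) while the test used a shared spread of 0.159, so calls between cultured groups are on the cautious side and those between transplanted groups on the generous side. The contrast between responses holds both kinds of library in equal number.

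Prg4, Hgf, Cpxm1 and Igsf10 were low in cultured heart fibroblasts and rose there on transplantation to the tail level or toward it. Prg4 (lubricin, a lubricating glycoprotein of joints, chr1:150449412-150466165) had 4.64, 4.62 and 4.21 CPM in HFc and 2098, 1650.3 and 1038 CPM in HFs, beside 2482, 2493 and 2678 CPM in TFc and 1710.2, 1761 and 2553 CPM in TFs. Only the cultured heart libraries stood apart from all others. The heart response was 8.47, the tail response -0.35 (adjusted p = 0.18) and the difference 8.81 ± 0.35 (SE, adjusted p = 1.0e-08), the largest positive difference among protein-coding genes with a mean of at least 1 CPM in every group and responses that did not overlap. Hgf, hepatocyte growth factor, was at 0.714, 0.297 and 0.581 CPM in HFc, 23.7, 25.5 and 26.4 CPM in HFs, 21.2, 21.1 and 24.2 CPM in TFc and 20.9, 26.2 and 27.9 CPM in TFs. The transplanted groups overlapped (gap 0.01, adjusted p = 0.96), and the response difference was 5.41 ± 0.26. The carboxypeptidase-like Cpxm1 (chr2:130390775-130397574) rose by 6.44 in heart and by 0.68 in tail fibroblasts, and the immunoglobulin superfamily gene Igsf10 (chr3:59316735-59344394) by 6.23 and 0.84. Igsf10 stayed higher in tail cells after transplantation, at 355 to 461 CPM in TFs against 74.2 to 119 CPM in HFs. The growth factor Ptn, the matrix genes Crispld2 and Adamtsl1 and the sulfotransferase gene Hs3st1 also belonged to the 10 largest positive differences, at 5.38, 5.34, 4.81 and 5.04.

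At the other end stood genes that were low in cultured tail fibroblasts and rose there on transplantation. Cp (ceruloplasmin, a copper-carrying ferroxidase and acute phase protein, chr3:19957054-20009145) had 1.29, 2.34 and 1.61 CPM in TFc and 326, 318 and 281 CPM in TFs, against 81.1, 78 and 92.7 CPM in HFc and 219.8, 328 and 574 CPM in HFs. The TFc libraries were far below all others, and the transplanted groups overlapped. The responses were 2.16 in heart and 7.48 in tail fibroblasts, a difference of -5.32 ± 0.44 (adjusted p = 2.9e-06). Aldh1a2, which makes retinoic acid, rose by 5.01 in tail fibroblasts (1.48 to 1.61 CPM in TFc, 34.9 to 68.5 CPM in TFs) and had a heart response of 0.48 (adjusted p = 0.12). The lipocalin Apod was low in both cultures (2.46 to 3.54 CPM in HFc, 1.13 to 1.56 CPM in TFc) and rose to 83.7, 121 and 134 CPM in TFs but to 5.68, 9.14 and 29.1 CPM in HFs, so that the gap of heart minus tail was -2.91 after transplantation (adjusted p = 0.00018). In culture the heart libraries were the higher without overlap, and the gap was not called (adjusted p = 0.12). Col2a1, the cartilage collagen, reached a negative difference (-4.15 ± 0.44) by another route, since it fell in heart fibroblasts from 109.8 to 114 CPM in HFc to 4.43 to 6.51 CPM in HFs while TFc (12.7 to 18.5 CPM) and TFs (5.65 to 18 CPM) overlapped.

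**Figure D2:**
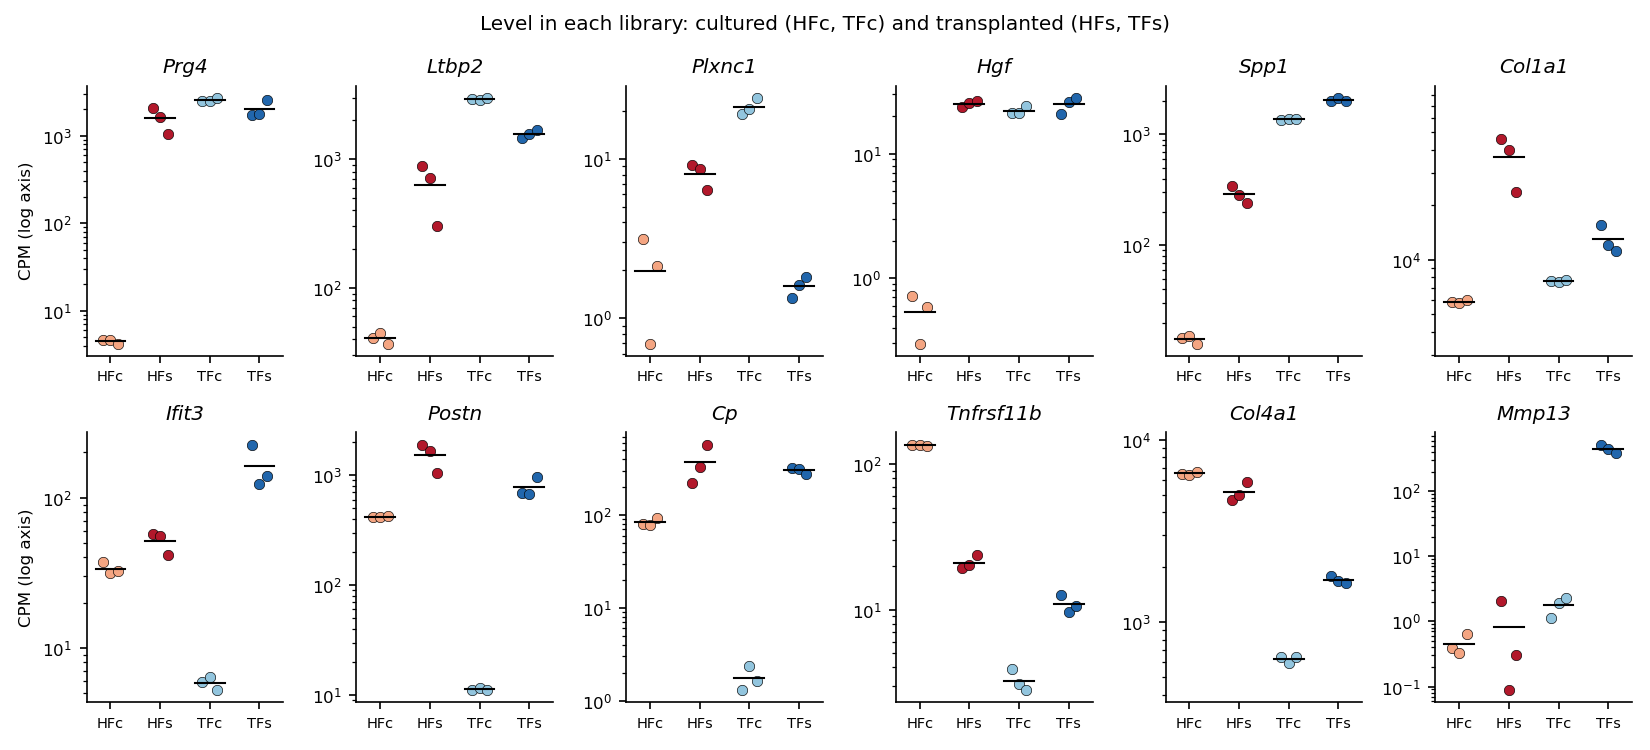
Level of genes picked from those named in the text, in each of the 12 libraries (CPM, logarithmic axis). Each gene has 1 panel, with points for the 3 libraries of HFc, HFs, TFc and TFs. In Prg4 the HFc points lie near 4.5 CPM and all other groups above 1000 CPM, whereas in Cp and Ifit3 the TFc points lie below the other groups.

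Genes called in opposite directions included Ltbp2, Plxnc1, Dio3, Crispld2 and Hs3st1, which rose in heart and fell in tail fibroblasts. Plxnc1 (plexin C1, a semaphorin receptor, chr10:94790866-94944835) had 3.14, 0.693 and 2.13 CPM in HFc and 9.15, 8.66 and 6.42 CPM in HFs, and 19.3, 20.7 and 24.1 CPM in TFc and 1.35, 1.61 and 1.81 CPM in TFs. The order of the organs thus turned over, with tail cells higher in culture and heart cells higher after transplantation, and no pair of groups compared overlapped. The responses were 2.03 and -3.73, and the difference was 5.76 ± 0.51 (adjusted p = 5.1e-06). Dio3, the deiodinase that inactivates thyroid hormone, rose from 0.858 to 1.75 CPM in HFc to 4.26 to 9.15 CPM in HFs and fell from 157 to 169 CPM in TFc to 16.6 to 24.7 CPM in TFs (responses 2.32 and -3.04). The latent TGF-beta binding protein gene Ltbp2 rose from 36.8 to 44.2 CPM in HFc to 302 to 877 CPM in HFs and fell from 2875 to 2969.5 CPM in TFc to 1467 to 1681 CPM in TFs. Falling in heart and rising in tail were the plakin Ppl, the decoy receptor Tnfrsf11b (osteoprotegerin), the cortisone reductase Hsd11b1, the tubulin Tubb2b and the ligand Wnt9a. With the marker covariate Dio3, Crispld2, Tnfrsf11b and Tubb2b kept opposite calls and Plxnc1, Ltbp2, Hs3st1, Ppl, Hsd11b1 and Wnt9a did not, and in the 18-library fit Crispld2 and Ppl lost theirs, as Ltbp2 did at an adjusted p of 0.01. Tnfrsf11b was the most even of these, at 136, 136 and 133 CPM in HFc, 19.2, 20.3 and 23.6 CPM in HFs, 3.88, 3.08 and 2.79 CPM in TFc and 12.5, 9.62 and 10.6 CPM in TFs. The groups did not overlap in either organ, with responses of -2.68 and 1.73 and a difference of -4.40 ± 0.18 (adjusted p = 1.0e-08). For Hsd11b1 and Ppl the HFs libraries were uneven, with 11.6, 33.8 and 75.5 CPM and 3.59, 5.67 and 25.6 CPM.

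Some genes had a group whose 3 libraries were all at or under 3 counts, and for these a fold is a bound set by that floor. Fndc10, C1qtnf3, Adh1 and Thbs4 (thrombospondin 4) were at or under the floor in HFc and counted in HFs. Thbs4 had 0, 0 and 0 counts in HFc, 83, 63 and 40 in HFs, 216542, 169209 and 149429 in TFc and 118283, 125957 and 151662 in TFs, so that the heart response was at least 4.87 (log2) above the tail response. C1qtnf3 (0, 0 and 3 counts in HFc, 18, 103 and 5 in HFs) fell in tail fibroblasts from 558 to 750 counts to 26 to 42, with a bound of 7.89. Most of its HFs counts were in replicate 2, so the bound rests largely on that library. Its rise in heart and fall in tail were not both called with the proximal tubule covariate. Adh1, an alcohol dehydrogenase also abundant in the kidney, had most counts in HFs replicate 2 (69, 363 and 138), the library with the highest proximal tubule level. In the other direction the receptor gene Il23r, the olfactory receptor Olfr56 and Clca2 had no count in any TFc library and 2 to 46 counts in TFs, while Vat1l had no count in HFs and 34 to 82 in HFc.

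Interferon-stimulated genes formed a one-sided list. Of 43 tested, 35 had a higher tail response, against 17.8% of all genes, and none had a higher heart response. In one fit of all 18 libraries, the kidney cells included, 18 had a higher tail response, beside 2101 of all 16577 genes. The median difference of the list in the main fit was -1.66 (-1.58 with groups at the floor set to it), beside 0.04 over all genes. All 43 rose in transplanted tail fibroblasts (median 3.83), beside 23.3% of all genes. In heart fibroblasts 38 rose (median 2.36), beside 33.3% of all genes, so most moved upward in both organs and further in tail. In 32 the responses did not overlap, every tail difference between a transplanted and a cultured library lying above every heart difference, as it did for 17.8% of all genes. Ifit3, an antiviral protein with tetratricopeptide repeats (chr19:34583531-34588731), had 5.94, 6.42 and 5.24 CPM in TFc and 225, 124 and 139 CPM in TFs, and 37.3, 31.3 and 32.6 CPM in HFc and 57.3, 55.7 and 41.4 CPM in HFs. Cultured heart fibroblasts held more Ifit3 than cultured tail fibroblasts and transplanted heart fibroblasts less than transplanted tail fibroblasts, with no overlap in either case. The responses were 0.61 and 4.78 and the difference was -4.18 ± 0.30 (adjusted p = 9.5e-07).

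The immunity-related GTPases Ifi47 and Irgm1 and the antiviral gene Ifit2 went in opposite directions, which for Ifi47 and Irgm1 was not called in the 18-library fit or with the proximal tubule covariate, nor for Ifi47 without HFs replicate 1 or 2 or HFc replicate 1. Ifi47 fell from 8.12 to 9.6 CPM in HFc to 4.67 to 6.58 CPM in HFs (response -0.67, adjusted p = 0.028) and rose from 0.175 to 0.623 CPM in TFc to 10.8 to 17.4 CPM in TFs, a difference of -5.96 ± 0.41. Irgm1 fell by 0.63 and rose by 2.40, and Ifit2 fell by 0.80 and rose by 1.24. The ubiquitin-like Isg15 rose in both, by 2.30 in heart and 5.43 in tail fibroblasts (adjusted p of the difference 0.0017). The interferon-induced chemokines Cxcl10 and Cxcl9 were close to the floor in culture. Cxcl10 reached 34.6, 28.7 and 18.1 CPM in TFs and 6.7, 4 and 7.87 CPM in HFs, and Cxcl9 40.4, 115 and 44.2 CPM in TFs and 1.26, 2.33 and 1.67 CPM in HFs. Oas1a, Oas2, Oas3, Gbp2, Gbp4, Irf1, Ifitm3 and Cxcl9 were the 8 members not called for the difference, although DESeq2 called Oas1a, Gbp4 and Cxcl9. In kidney fibroblasts the median response of the list was 1.70.

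Promoters are shown for the interferon gene Ifit3 and for Plxnc1, whose response difference had the other sign, because both hold the letters searched for the interferon-stimulated response element, GAAA repeated after a spacer of any 2 bases, on either strand. The windows run from 250 bases before to 50 bases after the RefSeq start in GRCm38.p6 and are written 5′ to 3′ on the strand of the gene, with matches in capitals. They lie at chr19:34583279-34583578 on the plus strand and chr10:94944796-94945095 on the minus strand.
Ifit3: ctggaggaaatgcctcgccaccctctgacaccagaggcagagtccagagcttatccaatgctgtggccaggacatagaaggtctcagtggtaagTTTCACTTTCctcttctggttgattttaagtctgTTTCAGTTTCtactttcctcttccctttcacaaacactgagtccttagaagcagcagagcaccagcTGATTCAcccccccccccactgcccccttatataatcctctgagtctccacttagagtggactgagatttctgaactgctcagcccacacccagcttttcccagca
Plxnc1: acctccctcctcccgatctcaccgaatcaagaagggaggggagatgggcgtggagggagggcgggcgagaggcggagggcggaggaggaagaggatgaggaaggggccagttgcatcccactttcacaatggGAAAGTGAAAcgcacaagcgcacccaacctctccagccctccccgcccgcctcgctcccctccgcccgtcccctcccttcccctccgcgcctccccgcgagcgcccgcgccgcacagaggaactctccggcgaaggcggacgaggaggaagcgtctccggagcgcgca
The capitals in Ifit3 mark the element, read on the opposite strand, at -156 and -122 from the start, and the AP-1 letters TGANTCA at -56. Those in Plxnc1 mark the element at -118. The letters of the element occurred in 3.44% of 32851 RefSeq promoters of this length and those of AP-1 in 7.81%. Among 33 interferon-stimulated genes with a promoter in the table, 20 (60.6%) held the element, beside 3.84% of 11446 tested genes with a promoter. The tail response was higher for 16 of the 20 with the element and for 11 of the 13 without it. A match is a description, not a binding site or a cause.

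**Figure D3:**
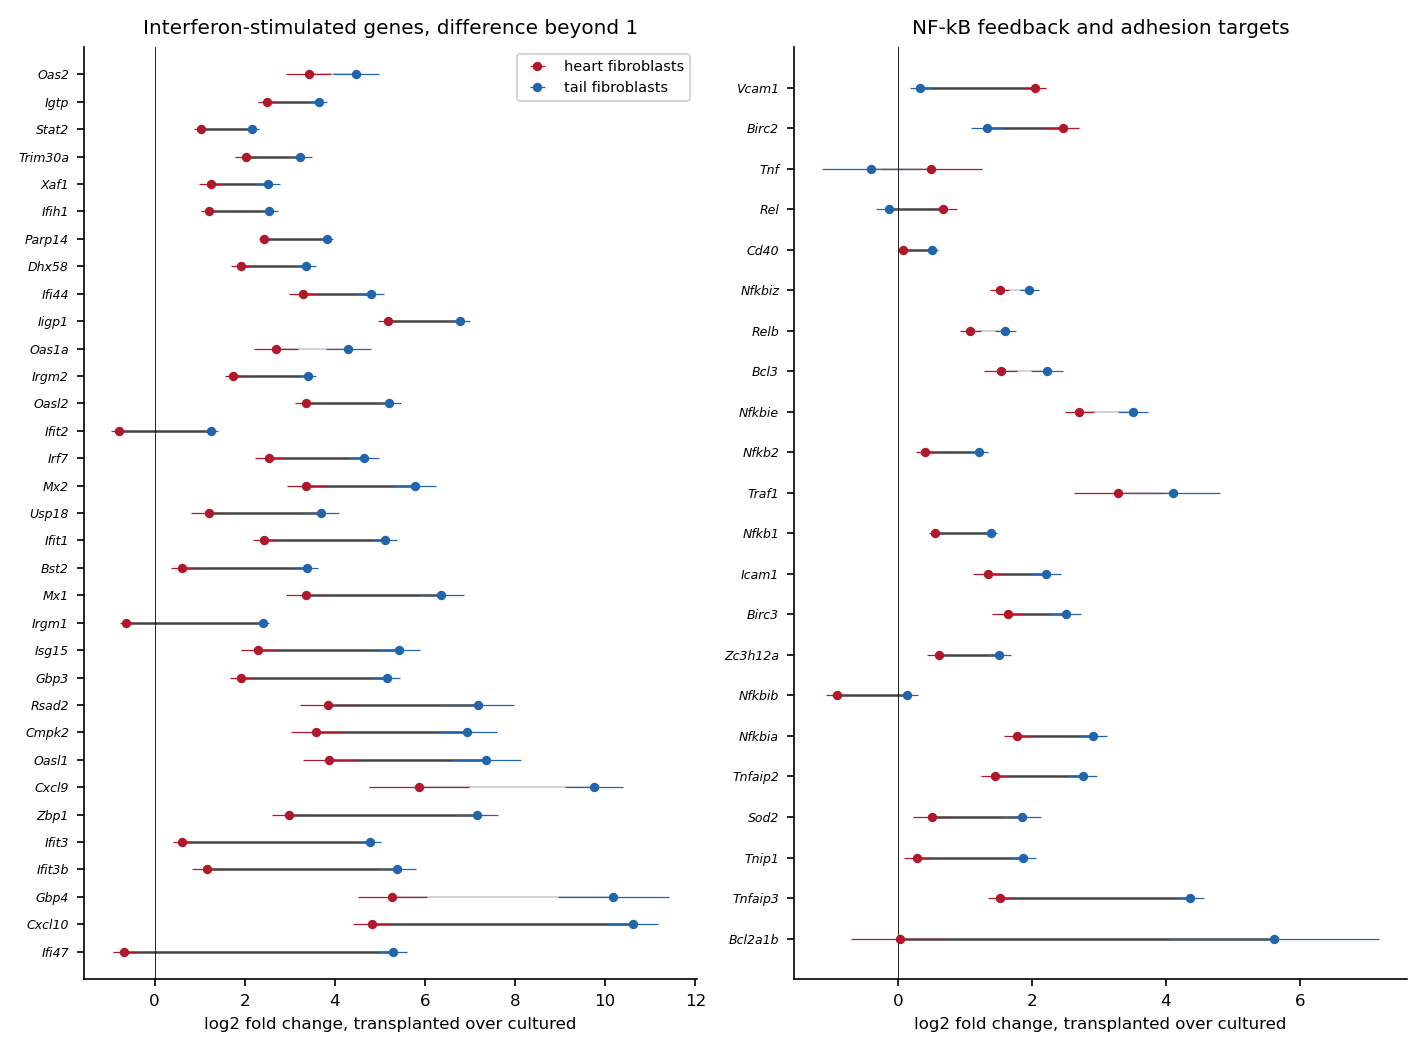
Response to transplantation (log2, horizontal axis, mean ± SE) in heart and tail fibroblasts of the 33 interferon-stimulated genes whose responses differed by more than 1 and of each NF-kB target, with a dark line between the organs where the difference was called. The tail point lies to the right of the heart point in the 33 interferon-stimulated genes shown, which were selected by that size, and 29 were called. Of all 43 tested, 35 were called with the higher tail response and none the other way. The NF-kB targets hold 13 called genes of that kind and 3 the other way.

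Other defence and inflammation lists were less one-sided. Of 22 NF-kB feedback and adhesion targets, 13 had a higher tail response and 3 a higher heart response (median -0.83), beside 17.8% and 17.7% of all genes. Tnfaip3, the A20 brake on NF-kB, had 18.3, 19.4 and 19.8 CPM in HFc, 50.5, 44.2 and 70.7 CPM in HFs, 4.88, 6.15 and 3.97 CPM in TFc and 106, 117 and 86.2 CPM in TFs. It rose in both organs without overlap, by 1.53 and 4.36, and the difference was -2.83 ± 0.26 (adjusted p = 6.2e-06). Nfkbia, the inhibitor that NF-kB itself induces, began at equal levels (18.1 to 23 CPM in HFc, 18.9 to 20.6 CPM in TFc) and reached 52.1 to 94.9 CPM in HFs and 118 to 173 CPM in TFs (difference -1.14 ± 0.28, adjusted p = 0.0071). The difference of the adhesion receptor Icam1 was -0.86, a call lost under 10 of 23 alternative fits (adjusted p = 0.054 to 0.083), while Vcam1 rose more in heart fibroblasts (1.72 ± 0.22), from 116 to 144 CPM in HFc to 441 to 676 CPM in HFs.

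Among 17 chemokines, 3 had a higher heart and 4 a higher tail response, near the shares over all genes, and the second count was 2 without any one of the HFc libraries. Ccl2, which draws monocytes, was alike in both cultures (40.6 to 57.3 CPM in HFc, 53.7 to 58.2 CPM in TFc), had 59, 45.1 and 113 CPM in HFs and rose to 326, 435 and 257 CPM in TFs, a difference of -1.96 ± 0.40 (adjusted p = 0.0023). Ccl5 was near the floor in culture and reached 126, 159 and 104 CPM in TFs and 6.82, 15.4 and 30.8 CPM in HFs, without overlap, and Ccl20 reached 13.7, 25.8 and 8.25 CPM in TFs and at most 0.19 CPM in HFs. The call of Ccl5 (adjusted p = 0.011) was lost without HFc replicate 3 (adjusted p = 0.072), and that of Ccl20 under 4 of 23 alternative fits (adjusted p = 0.053 to 0.29), among them leaving out HFc replicate 1 or 2. Of 20 cytokines and receptors of the IL-6 and IL-1 families, 6 had a higher heart and 7 a higher tail response. The shares over all genes were 17.7% and 17.8%. The tail count was 4 without HFc replicate 3, TFs replicate 2 or TFc replicate 1, and the counts were 3 and 4 in the 18-library fit. Il6 was at 19.2, 20.8 and 22.4 CPM in HFc, 14, 11.8 and 22.8 CPM in HFs, 0, 0.389 and 0.48 CPM in TFc and 13.9, 12.8 and 3.37 CPM in TFs. It rose in tail fibroblasts to a level below that of heart cells in culture (difference -5.59 ± 0.84, adjusted p = 0.00028). Lif fell in heart by 1.47 and rose in tail fibroblasts by 2.08. The alarmin Il33 rose in both, from at most 0.545 CPM in either culture to 238, 177 and 158 CPM in HFs and 23.6, 27.7 and 34.9 CPM in TFs, and its difference was 2.67 ± 0.84 (adjusted p = 0.026). The call of Il33 was lost under 6 of 23 alternative fits (adjusted p = 0.054 to 0.27), among them leaving out HFc replicate 1, TFc replicate 2 or TFc replicate 3.

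Acute phase genes rose in both organs, 16 of 19 in heart and 17 of 19 in tail fibroblasts, beside 33.3% and 23.3% of all genes. For the difference, 4 had a higher heart and 2 a higher tail response, near or below the shares over all genes. The count with the higher tail response was 6 without HFs replicate 3 and 4 without HFc replicate 2. Lcn2 reached 135, 215 and 386 CPM in HFs and 234, 166 and 143 CPM in TFs from at most 2.76 CPM in culture (difference 2.27, adjusted p = 0.027), a call lost without HFc replicate 1 or 3 or TFc replicate 2, in the 18-library fit and under limma voom (adjusted p = 0.057 to 0.21). Saa3, named by the study for the transplants, had 44.7, 158 and 289 CPM in HFs and 910.2, 522 and 532 CPM in TFs, with at most 0.311 CPM in culture, and its response difference did not pass the test (adjusted p = 0.78). Of 17 complement genes, 7 had a higher heart and 3 a higher tail response, beside 17.7% and 17.8% of all genes. The tail count lay near its share, and the heart count was 3 in the 18-library fit. The median difference of the list was 0.90, or 0.96 with groups at the floor set to it. The C1 proteases C1s1 and C1ra, which start the classical pathway, rose by 6.31 and 4.35 in heart and by 3.56 and 2.51 in tail fibroblasts. The central component C3 had the higher tail response (-2.46 ± 0.48, adjusted p = 0.0019). C3 had 136, 121 and 187 CPM in HFc, 2675, 5603 and 9435 CPM in HFs, 16, 20.7 and 19.9 CPM in TFc and 3292, 4466 and 4613 CPM in TFs, and only the transplanted groups overlapped. Antigen presentation genes (3 and 5 of 22) lay near the background shares, the second count being 2 in the 18-library fit and 3 in that without KFs replicate 3.

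Interstitial and basement membrane matrix genes differed in opposite directions. Of 16 fibrillar and beaded collagens, 10 had a higher heart and 2 a higher tail response, beside 17.7% and 17.8% of all genes. The median difference of the list was 0.96. The first count was 4 in the 18-library fit, in which 1675 of all 16577 genes had a higher heart response. Of 22 basement membrane genes, 2 had a higher heart and 11 a higher tail response (median -0.88), the first count being 5 without HFs replicate 1. Col1a1, the main chain of type I collagen, had 5819, 5811 and 6035 CPM in HFc, 45658, 39977 and 23433 CPM in HFs, 7641, 7563 and 7731 CPM in TFc and 15487, 12026 and 11193 CPM in TFs. The cultures were close (gap -0.38, adjusted p = 0.12), and every HFs library lay above every TFs library. The responses were 2.63 and 0.76 and the difference was 1.87 ± 0.28 (adjusted p = 0.00025). Its partner Col1a2 rose by 2.78 and 1.34, a difference not called in the 18-library fit (adjusted p = 0.051), and Col5a1 by 1.50 in heart with a tail response of -0.10 (adjusted p = 0.65). Col3a1 did not follow them, with responses of 3.02 in each organ (difference 0.01 ± 0.19, adjusted p = 0.99). Col6a3 had the smallest adjusted p of the list (difference 1.67 ± 0.11), rising from 79.3 to 84.4 CPM in HFc to 1207 to 1498 CPM in HFs and from 711 to 749 CPM in TFc to 3673 to 3959.6 CPM in TFs.

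Col4a1, a chain of the type IV collagen network, had 6490.2, 6431 and 6672 CPM in HFc and 4658, 4995 and 5859.5 CPM in HFs, and 640.3, 595 and 644 CPM in TFc and 1779, 1679.7 and 1644 CPM in TFs. It fell a little in heart (-0.34, adjusted p = 0.004) and rose in tail fibroblasts by 1.44, and heart cells remained the higher in both states (difference -1.78 ± 0.12). With the proximal tubule covariate the opposite directions of Col4a1 were not both called. Col18a1, the source of endostatin, rose in both organs, by 1.96 and 4.45, from 55.6 to 63.2 CPM in HFc to 214 to 271 CPM in HFs and from 20.9 to 23 CPM in TFc to 451 to 519 CPM in TFs. The laminins Lama4 and Lamb1 and the linker Nid1 also had the higher tail response (-1.18, -1.21 and -0.94). Col15a1 and Lamb2 were the exceptions with a higher heart response.

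Of 23 matricellular and wound matrix genes, 12 had the higher heart response and 4 the higher tail response (median 1.01). The shares over all genes were 17.7% and 17.8%, and the tail count lay near its share. Spp1 (osteopontin) rose from 13 to 15.2 CPM in HFc to 243 to 341 CPM in HFs, and from 1347 to 1383 CPM in TFc to 1982 to 2119.5 CPM in TFs (difference 3.78 ± 0.15, adjusted p = 1.0e-08). Fn1 (fibronectin) rose by 0.53 in heart and fell by 0.53 in tail fibroblasts, directions not both called with the proximal tubule covariate or at an adjusted p of 0.01. Thbs1 fell in both, by 1.78 and 3.53, from 7164 to 7460.5 CPM in HFc and from 19009 to 19758 CPM in TFc. Postn (periostin, chr3:54361109-54391037) and the tenascin Tnc were among the members with a higher tail response. Postn had 11.1, 11.6 and 11.1 CPM in TFc and 695, 675 and 953 CPM in TFs, and 412, 415 and 429 CPM in HFc and 1888, 1666 and 1049.6 CPM in HFs. It rose in both organs without overlap and stayed higher in heart cells, and because cultured tail fibroblasts began so low its responses were 1.87 and 6.10 (difference -4.23 ± 0.27, adjusted p = 4.1e-07).

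The Postn promoter nearest the annotated gene start is shown because this was one of the largest rises among the matrix genes and the window holds a TATA box. It lies at chr3:54360857-54361156 on the plus strand of GRCm38.p6, read 5′ to 3′ from RefSeq, with the TATAAA letters in capitals at -26 from the start.
Postn: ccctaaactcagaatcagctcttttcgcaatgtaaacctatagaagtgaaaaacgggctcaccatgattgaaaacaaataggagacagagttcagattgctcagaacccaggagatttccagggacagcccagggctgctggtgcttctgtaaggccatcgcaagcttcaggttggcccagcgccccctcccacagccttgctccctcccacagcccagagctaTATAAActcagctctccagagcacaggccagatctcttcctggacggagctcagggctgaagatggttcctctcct
The letters TATAAA, on either strand, occurred in 13.6% of the promoters of this length.

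**Figure D4:**
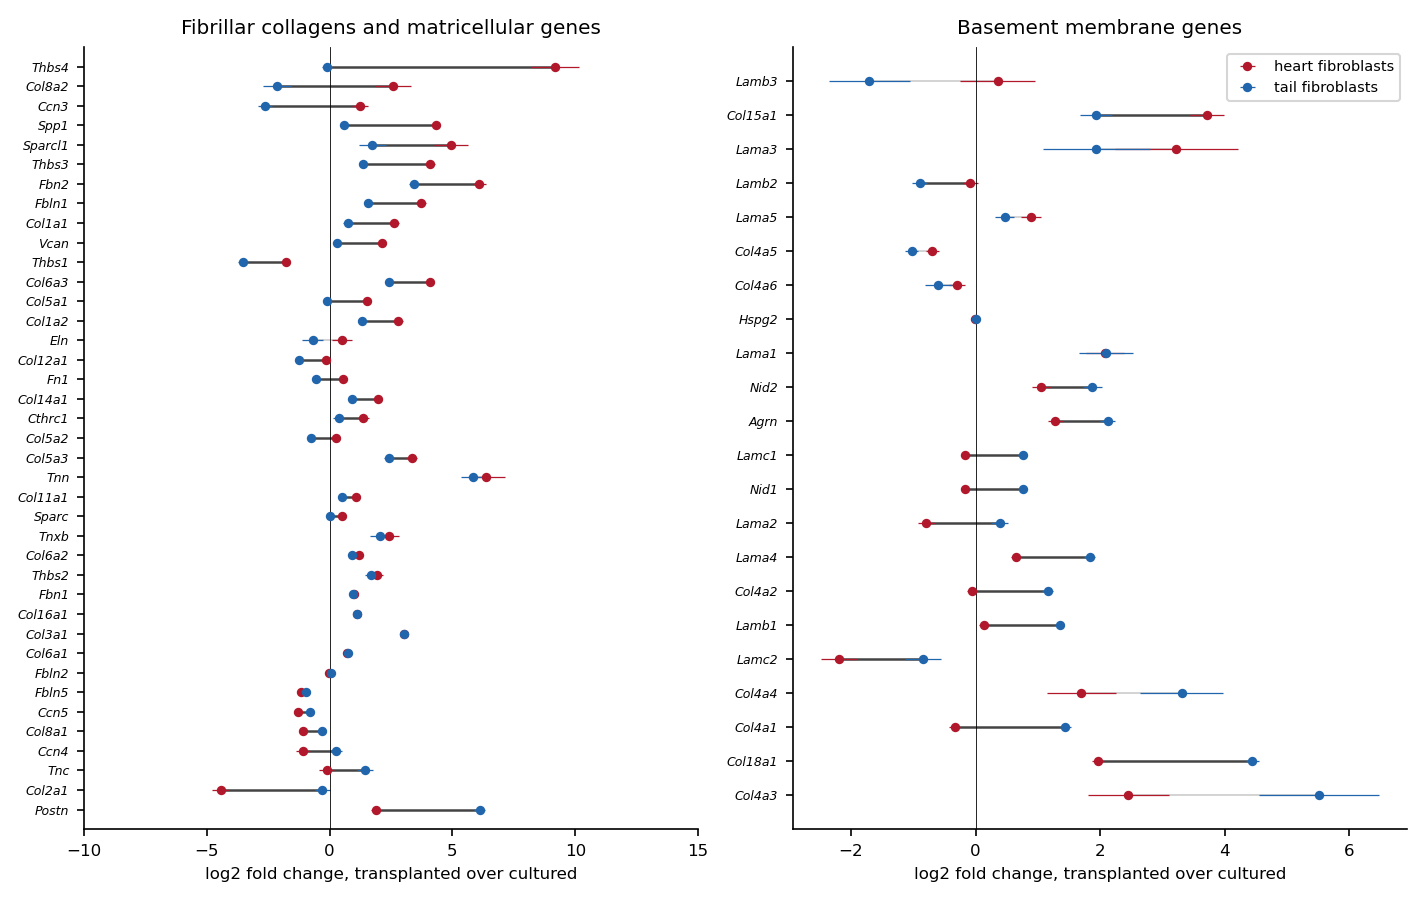
Response to transplantation (log2, horizontal axis, mean ± SE) of fibrillar collagens and matricellular genes and of basement membrane genes, in heart and tail fibroblasts, with a dark line where the difference was called. Heart points lie to the right of tail points for 10 called collagens and 12 called matricellular genes, and tail points to the right for 11 called basement membrane genes.

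Small leucine-rich proteoglycans, which bind collagen fibrils, had a higher heart response in 7 of 13 and a higher tail response in 2. The shares over all genes were 17.7% and 17.8%. The median difference of the list was 1.17, or 0.95 with groups at the floor set to it. In the 18-library fit 1 of the proteoglycans had a higher heart response. Dcn (decorin) rose in both organs, from 50.8 to 65.4 CPM in HFc to 1462 to 1659.8 CPM in HFs and from 37.5 to 47.5 CPM in TFc to 585 to 671 CPM in TFs. Its difference was small beside these rises (0.95 ± 0.16, adjusted p = 0.00056) and was not called in the 18-library fit (adjusted p = 0.39). Fmod fell in tail fibroblasts from 1316 to 1407 CPM to 198 to 483 CPM and had a heart response of -0.17 (adjusted p = 0.63). The difference of Fmod was not called in the 18-library fit (adjusted p = 0.22). Enzymes that hydroxylate and crosslink collagen were split, 5 higher in heart (3 in the 18-library fit) and 7 in tail of 20. These counts stand beside 17.7% and 17.8% of all genes. The transglutaminase Tgm2 differed most among these enzymes, rising by 0.96 in heart and by 4.13 in tail fibroblasts.

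Matrix proteases showed large single differences within a divided list (6 higher in heart, 7 in tail or 4 in the 18-library fit, of 22). The shares over all genes in the main fit were 17.7% (heart) and 17.8% (tail). The collagenase Mmp13 had 1.15, 1.95 and 2.27 CPM in TFc and 517, 453 and 389 CPM in TFs, but 0.393, 0.33 and 0.63 CPM in HFc and 2.09, 0.0879 and 0.304 CPM in HFs. Transplanted tail libraries alone were high, and the heart groups overlapped (difference -7.34 ± 1.11, adjusted p = 0.00031). The stromelysins Mmp10 and Mmp3 had differences of -6.76 and -2.20. Mmp10 had 32.6, 21 and 17.4 CPM in TFs and at most 1.13 CPM in every other library, while Mmp3 rose in both organs, to 304, 786 and 1168 CPM in HFs and 5179, 3108 and 3209 CPM in TFs. The difference of Mmp3 was not called in the 18-library fit (adjusted p = 0.18). The inhibitor Timp1 and the gelatinase Mmp2 rose more in heart fibroblasts (differences 1.86 and 1.46), and Timp1 had a tail response of 0.25 (adjusted p = 0.2).

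Contractile genes, by contrast, fell alike in direction in both organs, 16 of 20 in heart with a median response of -1.55 and 15 of 20 in tail fibroblasts with a median of -1.61, beside 31.9% and 27.4% of all genes that fell. Acta2, smooth muscle actin, fell from 2006 to 2051 CPM in HFc to 377 to 778 CPM in HFs and from 1029 to 1084 CPM in TFc to 132 to 323 CPM in TFs (difference 0.59 ± 0.42, adjusted p = 0.31). The difference of Acta2 was called without TFs replicate 1 (adjusted p = 0.0082) and under limma voom (adjusted p = 0.0094). Of the 20, 4 were called with the higher heart (2 in the 18-library fit and 8 by limma voom) and 2 with the higher tail response, and calponin Cnn1, which fell by 2.31 and 5.01, differed most. Of 18 YAP and TEAD targets, 2 (11.1%) had the higher heart and 5 (27.8%) the higher tail response. The shares over all genes, for this list and the contractile list, were 17.7% and 17.8%.

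Cell cycle lists separated the organs. Of 40 mitosis and spindle genes 32 had a higher tail response, and of 38 DNA replication and nucleotide synthesis genes 27 did. Neither list held a higher heart response. Over all genes 17.8% had a higher tail and 17.7% a higher heart response. The medians of the difference in these lists were -1.31 and -1.08. In heart fibroblasts 25 of the mitosis genes and 27 of the replication genes fell, beside 31.9% of all genes, and in tail fibroblasts 11 rose in each list, near the 23.3% of all genes that rose there. Mki67, a marker of cycling cells, had 249, 250.3 and 235 CPM in HFc, 234, 163 and 222 CPM in HFs, 145, 146 and 154 CPM in TFc and 450.2, 226 and 172 CPM in TFs. The TFs libraries spread widely, TFs replicate 1 being the highest, and all lay above TFc, while every HFs library was below every HFc library. Its difference was -1.18 ± 0.37 (adjusted p = 0.026). The call of Mki67 was lost without HFs replicate 2, HFc replicate 1 or 2, or TFc replicate 1 or 2 (adjusted p = 0.051 to 0.059). The helicase subunit Mcm3 fell from 39.8 to 44.9 CPM in HFc to 12.6 to 20.6 CPM in HFs and had 25.4 to 29 CPM in TFc and 25.8 to 43.5 CPM in TFs (difference -1.67 ± 0.27). Cdc20, which activates the anaphase-promoting complex, had responses of -1.40 and 0.33 (adjusted p of the second = 0.3), and again TFs replicate 1 was highest (18.9, 9.89 and 9.26 CPM). Without TFs replicate 1 the counts were 29 of the mitosis and 23 of the replication genes, and the median difference of the mitosis genes was -0.84. In kidney fibroblasts the median responses of these lists were 1.90 and 1.22.

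Genes of cholesterol synthesis and uptake fell in both organs and further in heart. None of 24 rose in either organ, 23 fell in heart fibroblasts (median -2.28), 19 fell in tail fibroblasts, and 20 had the higher tail response with none the other way (median difference -1.10, median tail response -1.10). Over all genes 31.9% fell in heart, 27.4% fell in tail and 17.8% had the higher tail response. Fdps, which makes farnesyl pyrophosphate, fell from 104, 109 and 114 CPM in HFc to 7.78, 6.86 and 4.41 CPM in HFs, and from 76.2, 70.5 and 72.6 CPM in TFc to 23.5, 30 and 15.1 CPM in TFs. No pair of groups overlapped, and the difference was -2.45 ± 0.30 (adjusted p = 6.5e-05). Sqle, the squalene epoxidase, fell by 3.30 in heart and by 1.23 in tail fibroblasts.

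Ribosomal protein genes moved by little but in one direction. Of 74, 53 had the higher tail response and none the higher heart response, with a median difference of -0.42. The shares over all genes were 17.8% and 17.7%, which apply to each list of this paragraph. In the 18-library fit 12 ribosomal protein genes had the higher tail response, beside 2101 of all 16577 genes. In heart fibroblasts 68 fell (median -0.66), beside 31.9% of all genes, and the tail median was -0.25. Ribosomal protein genes have many processed pseudogenes, and the expected counts divide reads among such copies, so single members are uncertain. Of 59 nuclear subunits of the respiratory chain, 20 had the higher tail and 1 the higher heart response (median -0.28). In heart fibroblasts 54 of them fell, beside 31.9% of all genes. The count with the higher tail response was 13 to 25 when a single library was left out, and 13 without HFc replicate 1, TFs replicate 1, TFc replicate 1 or TFc replicate 3, and it was 13 in the 18-library fit and 31 with scaling by library totals. Glycolysis and hypoxia genes had 14 of 30 with the higher tail response and 4 with the higher heart response (median -0.60), and 8 had the higher tail response in the 18-library fit. Pfkfb3, which drives glycolytic flux, rose by 1.04 and 2.77, whereas the stress gene Ndrg1 and the lactate exporter Slc16a3 rose more in heart fibroblasts (differences 2.23 and 1.65). Of 24 genes of the unfolded protein response, 10 had the higher tail response, 5 in the 18-library fit, and 2 the higher heart response. The chaperone Hspa5 fell in heart fibroblasts from 974 to 1003 CPM to 539.9 to 625 CPM and did not pass the test in tail (958 to 999 CPM in TFc, 947 to 1108 CPM in TFs).

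**Figure D5:**
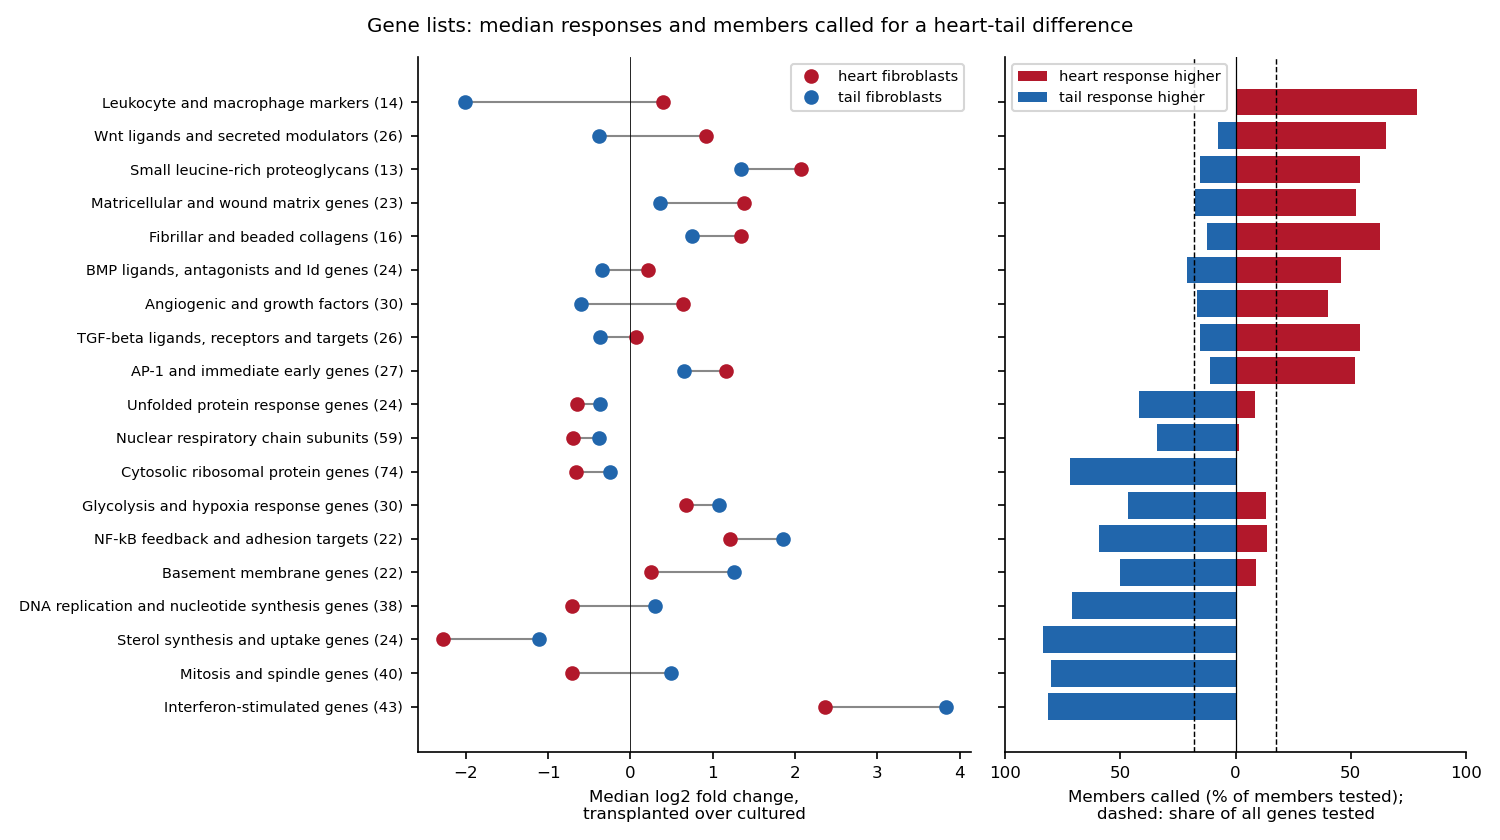
Median response of 19 gene lists in heart and tail fibroblasts (log2, first panel) and share of members called with a higher heart or tail response (percent, second panel, number tested in parentheses), ordered by the median difference. Dashed lines give the shares over all genes, 17.7% and 17.8%, which the tail bars for interferon-stimulated and mitosis genes and the heart bar for Wnt genes exceed.

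Wnt ligands and their secreted modulators leaned to the heart response. Of 26 such genes 17 had the higher heart response, beside 17.7% of all genes, and 2 had the higher tail response (median 1.56, or 1.33 with groups at the floor set to it). Many of these were high in cultured tail fibroblasts. Dkk3 had 20.1, 21.8 and 29.4 CPM in HFc, 77.2, 75 and 52.9 CPM in HFs, 413, 421 and 428 CPM in TFc and 106, 136 and 154 CPM in TFs, so that it rose in heart and fell in tail without overlap (difference 3.20 ± 0.24, adjusted p = 1.6e-06). The inhibitor Dkk2 fell in tail fibroblasts from 938 to 1006 CPM to 37.2 to 113 CPM, with a heart response of 0.94 (adjusted p = 0.099). The agonist Rspo3 was at or near the floor in HFc (0.0714, 0 and 0.194 CPM), reached 4.07, 4.4 and 3.65 CPM in HFs and had 42.3 to 47.7 CPM in TFc and 57.1 to 70 CPM in TFs. The noncanonical ligand Wnt5a rose by 0.89 in heart and had a tail response of -0.14 (adjusted p = 0.13). Wnt9a and Sfrp4 were the 2 members with the higher tail response.

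Of 24 BMP genes 11 had the higher heart and 5 the higher tail response, beside 17.7% and 17.8% of all genes. The tail count lay near its share. It was 3 without HFc replicate 1 and 1 in the 18-library fit. The median difference of the list was 0.86, or 0.47 with groups at the floor set to it. The secreted antagonists Grem1, Chrd and Chrdl1 were on the heart side, and the ligands Bmp4, Bmp2, Bmp6 and Gdf6 on the tail side, while the ligand Gdf10 was on the heart side (3.28), a call lost under 13 of 23 alternative fits (adjusted p = 0.056 to 0.24). In the 18-library fit Bmp4, Bmp2 and Bmp6 were not called (adjusted p = 0.081, 0.18 and 0.070), and Bmp2 was not called without HFc replicate 1 (adjusted p = 0.061). Grem1 had 185, 181 and 175 CPM in TFc, 23, 14.7 and 17.1 CPM in TFs, 0.464, 0.693 and 0.145 CPM in HFc and 0.897, 0.703 and 1.6 CPM in HFs. It fell by 3.31 in tail fibroblasts and rose by 1.23 in heart fibroblasts, where it remained low (difference 4.54 ± 0.48, adjusted p = 2.2e-05). Grem1 was no longer called in opposite directions in the 18-library fit, with the proximal tubule covariate, under limma voom, or without HFs replicate 3, HFc replicate 1 or HFc replicate 3. Bmp4 fell in heart fibroblasts from 89.3 to 97.8 CPM to 9.69 to 19.9 CPM, and Gdf6 from 426 to 437 CPM to 43.5 to 59.8 CPM. The direct BMP target Id3 fell in both, by 0.88 in heart and 2.29 in tail fibroblasts.

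The TGF-beta list had 14 of 26 with the higher heart and 4 with the higher tail response (median 0.72). The shares over all genes were 17.7% and 17.8%, and the tail count lay near its share. Tgfb1 rose in heart fibroblasts from 12.5, 13.4 and 13.9 CPM to 49.9, 36.8 and 30.8 CPM and had 39.9, 33.3 and 37.2 CPM in TFc and 29.7, 31.2 and 28.5 CPM in TFs. Tgfb2 went the other way, falling in heart from 208 to 227 CPM to 60.6 to 69.9 CPM and rising in tail fibroblasts by 0.57 (difference -2.31 ± 0.19), directions not both called with the proximal tubule covariate. The TGF-beta-induced adhesion protein Tgfbi rose by 4.46 and 1.64. Of 30 angiogenic and growth factors, 12 had the higher heart and 5 the higher tail response (median 0.84). The second count lay near the share over all genes. It was 3 in the 18-library fit and without HFs replicate 2, HFc replicate 2 or 3, TFs replicate 1 or TFc replicate 1 or 3. Besides Hgf and Ptn, Angpt1 rose by 4.34 and 1.07. Fgf2 fell in tail fibroblasts from 30.2 to 34.6 CPM to 5.19 to 6 CPM with a heart response of 0.18 (adjusted p = 0.29), and Fgf7 rose by 1.33 in heart and fell by 0.85 in tail fibroblasts, directions not both called in the 18-library fit or with the proximal tubule covariate.

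Immediate early genes, which many stimuli and tissue dissociation can induce, had the higher heart response in 14 of 27 and the higher tail response in 3 (median 0.48). The shares over all genes were 17.7% and 17.8%. The tail count was 5 without HFs replicate 3, 6 without TFs replicate 3 and 5 with library totals or limma voom. In each organ 15 of the 27 rose, beside 33.3% of all genes in heart and 23.3% in tail. Egr1 had 42.2, 43.7 and 42.7 CPM in HFc, 472, 435 and 388 CPM in HFs, 114, 122 and 122 CPM in TFc and 376, 425 and 319 CPM in TFs. The transplanted groups overlapped, and the cultured groups did not (difference 1.69 ± 0.14, adjusted p = 2.8e-06). Fos began level (12.2 to 17.9 CPM in HFc, 16.5 to 18.5 CPM in TFc) and its difference was 0.65 ± 0.19 (adjusted p = 0.018), which was not called in the fits of 18 and 17 libraries (adjusted p = 0.19 and 0.083). The orphan receptor Nr4a1 rose by 4.20 and 1.13. Transplanted and cultured cells differ in the sort and dissociation, and the part of handling in these genes was not tested.

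Of 58 axon guidance genes, which also steer cell migration, 24 had the higher heart and 11 the higher tail response (median 0.50). The shares over all genes were 17.7% and 17.8%, and the tail count lay near its share. In the 18-library fit the counts were 15 and 6, beside 1675 and 2101 of all 16577 genes. Sema3b had 0.214, 0.528 and 0.678 CPM in HFc, 14.9, 18.2 and 10.2 CPM in HFs, 35.8, 40.7 and 36.1 CPM in TFc and 22.5, 26.5 and 32.2 CPM in TFs (difference 5.43 ± 0.38). Only the HFc libraries were near zero. Slit3 had 30.3 to 40.7 CPM in HFc and 176, 221 and 319 CPM in HFs, on both sides of the 229 to 283 CPM of the tail groups. The repellent Sema3a ran against the list, falling by 2.83 in heart fibroblasts with a tail response of -0.39 (adjusted p = 0.07).

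Positional and organ factors were described in every library. Hox genes, which record body position, had a higher heart response in 11 of 32 and a higher tail response in 1, Hoxc13. The shares over all genes were 17.7% and 17.8%. The median difference of the list was 0.89, or 0.78 with groups at the floor set to it. The heart rises of Hox genes were from near zero to low levels. Hoxa10 had 0.143, 0 and 0 CPM in HFc and 0.538, 0.659 and 0.342 CPM in HFs, against 12.4 to 15.8 CPM in TFc and 8.66 to 9.51 CPM in TFs, so the organ gap was -7.97 in culture and -4.14 after transplantation. Hoxb6 rose by 1.58 in heart fibroblasts (0.291 to 0.33 CPM in HFc, 0.684 to 1.14 CPM in HFs) and had 13.9 to 14.9 CPM in TFc and 10.8 to 13.1 CPM in TFs, a difference not called in the 18-library fit (adjusted p = 0.075). Hoxb13, of the most caudal group, fell in tail fibroblasts from 64.5 to 67.5 CPM to 29.5 to 34.9 CPM and was at most 0.0714 CPM in every heart library. Hoxc13 fell in both, from 2.03 to 2.93 CPM in HFc to at most 0.308 CPM in HFs and from 36.6 to 42.2 CPM in TFc to 7.88 to 9.01 CPM in TFs (difference -2.06 ± 0.54, adjusted p = 0.0099). The call of Hoxc13 was lost under limma voom (adjusted p = 0.077), which left no Hox gene with a higher tail response.

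Of 16 cardiogenic factors 3 were called in each direction, near the shares over all genes (17.7% and 17.8%), and in the 18-library fit none had the higher heart and 3 the higher tail response. Tbx20 fell in heart fibroblasts from 1138 to 1193 CPM to 371 to 448 CPM and was at most 0.524 CPM in any tail library, and Gata4 fell from 97.5 to 102 CPM to 59.4 to 69.2 CPM. Neither passed the test for the difference (adjusted p = 0.83 and 0.32), and Tbx20 had almost no counts in the tail libraries. The Notch target Heyl rose in both organs, from 10.2 to 10.3 CPM in HFc to 16 to 43.8 CPM in HFs and from at most 0.0588 CPM in TFc to 5.42 to 9.96 CPM in TFs. TFc was under the floor, so the heart response was at least 4.37 (log2) below the tail response. Of 17 non-Hox limb and dermal factors 4 were called each way.

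Markers of other cell types moved differently in the organs, and their part in the results was not tested. Although the sort took CD45- cells, all 11 called members of the 14 leukocyte and macrophage markers had the higher heart response. This direction was called for 17.7% of all genes. The markers had a median difference of 1.95, and 6 were called in the 18-library fit. Their sum was 108, 180 and 182 CPM in HFs, 116 to 135 CPM in HFc, 45.4 to 52.9 CPM in TFs and 207 to 237 CPM in TFc, so it was lower in transplanted than in cultured tail cells. Csf1r, the macrophage growth factor receptor, had 12.2 to 16.3 CPM in HFc, 14.8 to 19.4 CPM in HFs, 23.5 to 24.7 CPM in TFc and 3.45 to 4.93 CPM in TFs (difference 2.78 ± 0.21). Lyz2 followed the same pattern (difference 3.05). Of 3 cardiomyocyte markers tested, 1 had the higher heart and 1 the higher tail response, beside 17.7% and 17.8% of all genes. Their differences ran from -4.52 to 7.06, and the marker with the higher heart response rose in heart and fell in tail fibroblasts. Tnnt2, a cardiomyocyte troponin, had the higher tail response (adjusted p = 0.032). Its call was lost without TFs replicate 2, TFc replicate 1 or TFc replicate 3 (adjusted p = 0.59, 0.059 and 0.054) and in the 18-library fit (adjusted p = 0.18). Tnnt2 was at 90.3, 96.8 and 105 CPM in HFc and at most 4.45 CPM in every other library, and the desmosomal gene Dsp at 82.9 to 86.9 CPM in TFc and at most 10.9 CPM elsewhere. The endothelial markers summed to 427 to 450 CPM in HFc, 133 to 148 CPM in HFs, 63.1 to 78.6 CPM in TFs and 40.7 to 46.2 CPM in TFc. The sum followed Ptprb, a receptor phosphatase that fell in heart fibroblasts from 360 to 387 CPM in HFc to 35.4 to 53.8 CPM in HFs. However, 7 of the 10 markers rose there, beside 33.3% of all genes. For the difference, 2 had the higher heart and 3 the higher tail response, beside 17.7% and 17.8% of all genes. The heart count lay near its share. Haemoglobin and other erythroid markers had 38.2, 0.132 and 42.5 CPM in HFs, 2.6 to 8.46 CPM in TFs and none in culture.

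Lysosomal genes had 11 of 33 with the higher heart response (6 in the 18-library fit) and 1 with the higher tail response (median 0.29). The count with the higher tail response was 4 with library totals and 3 without TFs replicate 1. Higher heart and higher tail responses were called for 9 and 7 of 21 adipogenic and lipid storage genes, 6 and 6 of 22 p53 targets, 5 and 9 of 28 amino acid response genes, 8 and 6 of 23 aryl hydrocarbon receptor and Nrf2 targets, 4 and 3 of 15 IGF genes, and 3 and 4 of 19 integrins, beside 17.7% and 17.8% of all genes. The integrin counts, the amino acid count for heart and the IGF count for tail lay near these shares. With single libraries left out, the p53 count for tail went down to 3, the amino acid count for heart to 3 and the IGF count for heart to 2, and the integrin count for heart went up to 5. Within these lists, the aryl hydrocarbon receptor repressor Ahrr fell in tail fibroblasts from 47 to 48.5 CPM to 6.01 to 9.05 CPM and rose in heart from 0.749 to 0.825 CPM to 1.85 to 2.77 CPM. The integrin Itga4 fell by 2.01 in heart and rose by 0.96 in tail fibroblasts, and the insulin-like growth factor receptor Igf1r fell by 2.04 and 0.47. Htra1, a serine protease, stayed level in heart fibroblasts (56.9 to 63.8 CPM in HFc, 56 to 65.3 CPM in HFs) and rose in tail from 7.11 to 7.82 CPM to 60 to 65.8 CPM, where the transplanted groups overlapped (difference -3.04 ± 0.12, adjusted p = 9.7e-09).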

How the data were processed

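Stranded total RNA from 12 libraries of cultured and transplanted heart and tail fibroblasts was sequenced by the authors as single-end reads of 75 bases and quantified with RSEM and Bowtie2 against a GRCm38 annotation, as the study's methods state, while the submitters' processing notes list Bowtie and an older mouse build. The deposited values are expected counts, whole numbers per Ensembl gene with no normalization by the authors. Gene symbols and positions were taken from GENCODE vM21 (GRCm38) for 37607 of 38924 identifiers, and the other 1317 held 0.277% of the counts. Genes were kept by filterByExpr and fitted with edgeR 4.0.16 in R 4.3.3 (TMM, factors 0.908 to 1.09, quasi-likelihood test, each group with its own mean). P-values of 15904 genes were adjusted by Benjamini-Hochberg and called at 0.05. The main contrast was (HFs - HFc) - (TFs - TFc). SE is the absolute log2 change over the square root of F. Responses were called non-overlapping when all 9 HFs minus HFc differences of log2 CPM (prior count 2) lay on one side of all TFs minus TFc differences.

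The members and the 51 gene lists were chosen with earlier results of these data known. Genes named were the 10 largest differences per direction among called protein-coding genes with a mean of at least 1 CPM in each group and non-overlapping responses, the 5 largest per direction called in opposite directions, up to 4 members per list by adjusted p, genes the study names for the transplants, and 5 per direction with a group at or under 3 counts. Other list members named were chosen after their values were seen. Some list members that the rule names are not reported here. Under the last rule 1 gene is not described because its responses overlapped. Replicate libraries differed beyond sampling noise in every pair, with a chi-square of 4.74 to 88.7 per gene. In simulated data (15471 genes), each gene had its overall mean in every group and 1 spread (0.159) served all genes. Changes were set in HFs only, for genes of at least 5 CPM. The test found 56 of 100 genes changed by 1 on the log2 scale and 100 of 100 changed by 2, with 17 false calls. The real spread was 0.0782 in cultured and 0.206 in transplanted libraries, so these counts do not give the power or false calls in the real data. Kidney responses came from a 17-library fit without KFs replicate 3, whose sex-linked genes differed from its group in an earlier analysis of these data. Alternatives were DESeq2 1.42.0, limma 3.58.1, other scalings, filters, library sets, covariates and thresholds, thinning to the smallest total, and leaving out each library in turn.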

Additional observations from a re-analysis of the deposited data

Results flagged for a closer look

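By the test of the difference between the organs' responses, 5643 genes differed between heart and tail fibroblasts. Among the genes with a mean of at least 1 CPM in every group and non-overlapping responses, the heart response was higher (log2) by 8.81 for Prg4, 5.76 for Cpxm1, 5.76 for Plxnc1, 5.39 for Igsf10, 5.38 for Ptn, 5.37 for Dio3, 5.34 for Crispld2, 5.04 for Hs3st1, 4.84 for Ltbp2 and 4.81 for Adamtsl1. The heart minus tail difference was -5.32 for Cp, -4.83 for Ppl, -4.54 for Aldh1a2, -4.40 for Tnfrsf11b, -4.26 for Hsd11b1, -4.23 for Postn, -4.18 for Ifit3, -4.15 for Col2a1, -4.11 for Apod, -4.11 for Tubb2b and -3.996 for Wnt9a. The cause of these differences was not tested.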

How the results depend on the processing

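Of 122 genes described above that were called for the difference, none changed sign under the alternatives run, 109 kept their call in one fit of all 18 libraries, 110 at an adjusted p of 0.01 and 116 to 122 under each other fit. Of 28 called in opposite directions, 19 remained so in the 18-library fit, 20 at 0.01 and 10 with the proximal tubule marker level as a covariate. However, list medians near 0 changed sign (chemokines, acute phase, IGF, cardiogenic, p53 and amino acid response genes), as did the median of all genes with library totals, the proximal tubule median without HFs replicate 2 (-0.53) and the erythroid median under limma voom (-0.30). In one fit with all 18 libraries, 1675 genes had the higher heart response and 313 were called in opposite directions. With the proximal tubule marker level as a covariate, opposite calls were 104, calls for the heart response 5935 and for the tail response 4196. The difference then gave 2807 genes with the higher heart and 2863 with the higher tail response. That covariate nearly follows transplantation, so the calls lost cannot be assigned to kidney RNA. At an adjusted p of 0.01 the counts were 1733 (heart higher), 1830 (tail higher), 284 (opposite) and 3529 (heart against tail after transplantation), and with a log2 difference beyond 1 they were 1472 and 905. Leaving out 1 library gave 2409 to 2792 genes with the higher heart response (lowest without TFc replicate 1), 2441 to 2890 with the higher tail response and 458 to 642 in opposite directions. DESeq2 called 2869 and 3148, and limma voom with sample weights, chosen after seeing the data, 2941 and 3046. Scaling by library totals gave 38.9% of calls with the heart response higher, against 49.8%.

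Among lists, the 18-library fit lowered many counts by over 1.5 times, most of them given with the counts. The 17-library fit, without KFs replicate 3, called 2716 genes with the higher heart and 2745 with the higher tail response, and 571 in opposite directions. In it 10 fibrillar and beaded collagens had the higher heart response, as in the main fit, and 24 interferon-stimulated genes the higher tail response, against 35. Leaving out 1 library also moved some list counts below 7 by that much. At 0.01 the mitosis genes went from 32 to 16 and the NF-kB targets from 13 to 7. With replicate number as a block, 2652 and 2742 genes were called and 574 were opposite. The numbers did not pair the libraries (mean correlation of same-numbered libraries -0.0136, none of 18 pairs above 0.1, 2 of 12 libraries closest to their own number). Calls between groups near the floor of 3 counts are limited by depth.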
